A study of Mus musculus with 12 samples.

Results

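Cells of bone hold on to each other through cadherins and exchange small molecules through gap junctions, and 8 genes of this machinery were followed here: the cadherins Cdh2, Cdh11 and Cdh13, the connexins Gja1 and Gjc1, the catenins Ctnnb1 and Ctnna1, and the junction scaffold Tjp1. They were taken from a named list, chosen with earlier results of these data known, out of 35214 genes to which transcripts were assigned. All 8 are reported whatever their values, and 7 passed the filter on low counts and were tested. The cells were Ocy454, a mouse osteocyte-like line that is expanded at the lower temperature of 33C and differentiates at 37C, so all groups come from 1 line and stand for no animal. All cultures had differentiated for 5 days, received a pretreatment of 1 h and a treatment of 48 h, and were harvested on day 7. The DMSO group received vehicle alone. The DMSO+FGF2 group received vehicle and 2 ng/mL of fibroblast growth factor 2 (FGF2). The BGJ398 group received 200 nM of BGJ398, an inhibitor of the FGF receptor kinases, and the BGJ398+FGF2 group received both agents. Each group had 3 libraries of polyadenylated RNA, with 18951710 to 27716975 reads per library.

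Classical cadherins are membrane proteins whose outer domains bind cadherins of a neighbouring cell, while their tails bind beta-catenin, which links through alpha-catenin to actin. Beta-catenin is also the transcriptional arm of canonical Wnt signaling, so that the same protein serves adhesion and gene regulation. Connexins form channels that join the cytoplasm of adjacent cells, and osteocytes use them to form a network through the bone matrix.

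The label of the cells was set against 15 markers of osteoblasts and osteocytes, of which 11 were tested. Sost, which encodes the osteocyte product sclerostin, and Mepe had no reads in any library, so these markers of the mature osteocyte were absent. Dmp1, Phex and Fgf23 were each under 1 TPM. Col1a2, Col1a1 and Sparc, genes of the bone matrix, stood at 2660, 2620 and 2200 TPM in DMSO, Spp1, which encodes osteopontin, at 591 TPM, the osteoblast factor Runx2 at 56.5 TPM and the early osteocyte marker Pdpn at 31.4 TPM. Epithelial markers, which would accompany epithelial cadherins, summed to no more than 1.07 TPM in any library (TPM, an abundance corrected for transcript length and scaled to a fixed total), with Epcam, Krt18, Krt5 and Esrp1 at 0. Endothelial markers summed to no more than 1.93 TPM, with Emcn and Cldn5 at 0, and muscle markers to no more than 4.86 TPM, with Myod1, Myog, Myf5 and Actc1 at 0. Adipocyte markers summed to 9.57 to 16.1 TPM, with Adipoq and Lep at 0. In DMSO most of that sum was Cebpa, at 11.8 TPM, with Fabp4 at 1.17 TPM and Pparg and Plin1 under 1 TPM.

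Libraries of 3 groups stood apart from their own replicates. The variation left within groups was taken over the tested genes with the highest mean level, not over all of them. Of it, 64.0% lay on 1 axis. On that axis BGJ398 replicate 1, DMSO+FGF2 replicate 2 and BGJ398+FGF2 replicate 2 lay at 6.4, 5.75 and 10.7. The other 9 libraries lay at −5.95 to 0.88. Results are therefore given with these 3 libraries and, where they matter, without them. The 3 were picked by their deviation within groups, so leaving them out narrows the spread by choice. A smaller p without them is therefore not support for a change.

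The levels placed beta-catenin first. Levels between genes are compared in TPM. Ctnnb1 (ENSMUSG00000006932, chromosome 9) averaged 662.4 TPM over the 12 libraries and ranked 184 of 12163 tested protein-coding genes. Cdh11 (ENSMUSG00000031673, chromosome 8), cadherin-11 of mesenchymal and osteoblastic cells, averaged 313.3 TPM and ranked 435. Ctnna1 (ENSMUSG00000037815, chromosome 18), alpha-catenin, averaged 182.8 TPM and ranked 833. The remaining tested members were lower, with Gja1 (ENSMUSG00000050953, chromosome 10) at 94.9 TPM, Cdh2 (ENSMUSG00000024304, chromosome 18) at 59.9, Gjc1 (ENSMUSG00000034520, chromosome 11) at 46.3 and Tjp1 (ENSMUSG00000030516, chromosome 7) at 42.9. Cdh13 (ENSMUSG00000031841, chromosome 8), T-cadherin, which is anchored to the membrane by lipid and has no tail for catenins, had 2 reads in all, 1 in DMSO+FGF2 replicate 3 and 1 in BGJ398+FGF2 replicate 1. In the other 10 libraries it was not detected, where a count of 0 allows up to 3 reads (counting error only), and no fold change is given for it.

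The first comparison asked what FGF2 did to these genes when its receptors were not inhibited. FGF2 lowered both expressed cadherins by a similar fraction and raised the main connexin, while the second connexin, the catenins and Tjp1 did not pass the test. A gene is called here when its Benjamini-Hochberg adjusted p in edgeR's quasi-likelihood test, over all tested genes, was under 0.05. Of the 7 tested members, 3 were called in this comparison, 2 lower and 1 higher, against 13.4% of all 12542 tested genes, 5.82% lower and 7.57% higher. With 7 genes, that count is a description of the list. The libraries of both groups did not overlap for 4 members, Cdh2, Cdh11, Gja1 and Ctnna1, as for 37.6% of all tested genes. The median log2 fold change of the 7 was −0.02, against −0.00 for all tested genes.

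Cdh2, N-cadherin, which osteoblasts share with neurons and muscle, is given in CPM, its reads scaled by library size. It stood at 136, 146.3 and 145.1 CPM in the DMSO libraries and at 105.6, 96.5 and 104.8 CPM in the DMSO+FGF2 libraries. Every DMSO+FGF2 library lay below every DMSO library. The means were 142.5 ± 5.64 CPM (SD, n = 3) and 102.3 ± 5.03 CPM (SD, n = 3), so that expression fell by 28.2%, with a log2 fold change of −0.48 ± 0.06 (SE, edgeR quasi-likelihood adjusted p = 0.000218). On the length-corrected scale the levels were 61.9 ± 2.84 and 42.2 ± 2.92 TPM.

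Cdh11, the most abundant cadherin of these cells, stood at 941.4, 929.8 and 941.3 CPM in DMSO and at 681.7, 643.9 and 708.8 CPM in DMSO+FGF2. Every DMSO library lay above every library of the other 3 groups, and every DMSO+FGF2 library lay below them. The means were 937.5 ± 6.68 and 678.1 ± 32.6 CPM (SD, n = 3 each), so that expression fell by 27.7%, with a log2 fold change of −0.47 ± 0.06 (SE, edgeR adjusted p = 0.000208). Without the 3 libraries that stood apart, the log2 fold changes were −0.44 for Cdh2 and −0.43 for Cdh11, and both remained called.

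Gja1, connexin 43, the principal gap junction protein of osteoblasts and osteocytes, moved the other way. It stood at 133.8, 146.1 and 134.3 CPM in DMSO and at 159.6, 177.2 and 158.2 CPM in DMSO+FGF2. The groups did not overlap, and the highest DMSO+FGF2 library was replicate 2, which is among the libraries that stood apart. The means were 138.1 ± 6.94 and 165 ± 10.6 CPM (SD, n = 3 each), a rise of 19.5% with a log2 fold change of 0.26 ± 0.07 (SE, edgeR adjusted p = 0.0225). The adjusted p rose to 0.0924 without DMSO replicate 1, to 0.0946 without DMSO replicate 3, to 0.107 without DMSO+FGF2 replicate 2 and to 0.0533 in the edgeR fit on length-scaled counts. Without all 3 libraries that stood apart the log2 fold change was smaller, at 0.20, with an edgeR adjusted p of 0.0042. That fit called 2611 of all genes against 1680 with every library, so the smaller p is not added support for Gja1.

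**Figure D1:**
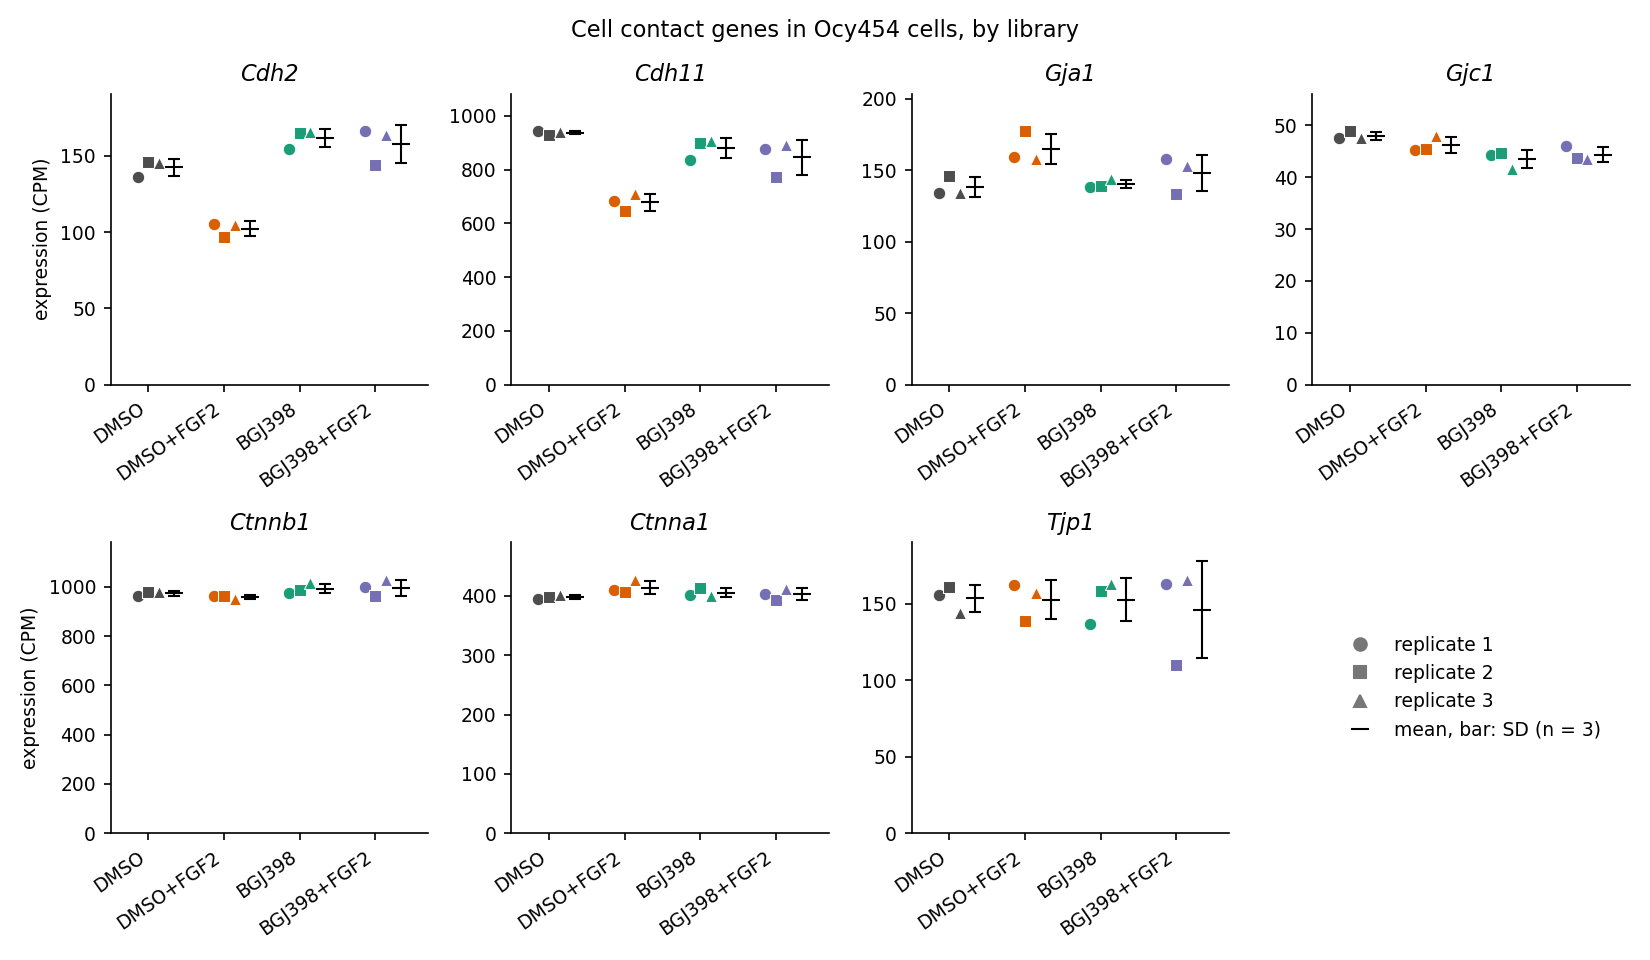
Expression in CPM on a linear axis from 0 for the 7 tested genes, with 1 point per library, replicates by symbol, and the mean with its SD (n = 3) in black beside each of the 4 groups. The DMSO+FGF2 libraries lie below all others for Cdh2 and Cdh11, and Tjp1 is low in BGJ398+FGF2 replicate 2 at 109.8 CPM.

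The promoter of Gja1 is shown because Gja1 was the 1 member that rose and the 1 called member with an entry in the promoter table used. The sequence is from RefSeq, build GRCm38.p6, plus strand, chr10:56377050-56377299, and holds the 250 bases before the annotated start of transcription. Capitals mark the match to TGANTCA, the recognition sequence of the AP-1 factors of the Fos and Jun families.
Gja1: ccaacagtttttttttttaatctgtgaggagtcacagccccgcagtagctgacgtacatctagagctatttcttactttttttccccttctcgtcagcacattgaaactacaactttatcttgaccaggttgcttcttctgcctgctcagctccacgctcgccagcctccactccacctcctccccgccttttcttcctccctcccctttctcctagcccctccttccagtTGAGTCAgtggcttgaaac
The match lies at bases −19 to −13 from the start. The motif was searched on both strands and occurs in 2217 of 32851 windows of the same length, or 6.75%. The windows of Ctnnb1 and Tjp1, the other 2 members with an entry, do not hold these letters. A match describes the letters of the window and is not evidence that a factor binds there.

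The remaining members did not pass the test for FGF2 in DMSO, and their intervals bound the change. Gjc1, connexin 45, stood at 47.5, 48.8 and 47.6 CPM in DMSO and at 45.3, 45.5 and 48 CPM in DMSO+FGF2, with a log2 fold change of −0.05 and a 95% interval of −0.17 to 0.07. Ctnnb1 averaged 973.7 ± 9.54 and 960.0 ± 7.22 CPM, with a log2 fold change of −0.02 (95% interval −0.12 to 0.08). The libraries of Ctnna1 did not overlap, at 394.7, 397.5 and 402.2 CPM in DMSO against 409.5, 406.3 and 427 CPM in DMSO+FGF2. Its log2 fold change of 0.06 (95% interval −0.04 to 0.15) had an edgeR adjusted p of 0.461. For both catenins the interval excludes a change as large as that of the cadherins.

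Tjp1, the scaffold ZO-1, which binds the tail of connexin 43 and alpha-catenin, was the least precisely measured member. Its mean was 153.5 ± 8.71 CPM (SD, n = 3) without and 152.7 ± 12.6 CPM (SD, n = 3) with FGF2, with a log2 fold change of −0.01 and a 95% interval of −0.28 to 0.26. Relative to the mean of the other 2 replicates, its log2 CPM was lower by 0.232 in BGJ398 replicate 1, by 0.206 in DMSO+FGF2 replicate 2 and by 0.581 in BGJ398+FGF2 replicate 2. These are the 3 libraries that stood apart, so the spread of Tjp1 moved with them. Without them its log2 fold change was 0.06 (edgeR adjusted p = 0.429).

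The second comparison asked whether FGF2 acted when its receptors were inhibited. No member was called, and 0% of the tested genes were, by edgeR. At an unadjusted p under 0.05 edgeR listed 325 genes, or 2.59% of those tested. At an adjusted p under 0.05 DESeq2 called 5 and limma-voom called 0, and no member was among the calls of any tool. Cdh2 stood at 154.8, 165.1 and 165.6 CPM in BGJ398 and at 166, 143.8 and 163.8 CPM in BGJ398+FGF2. The groups overlapped, and the lowest library was BGJ398+FGF2 replicate 2. Its log2 fold change was −0.04 (95% interval −0.17 to 0.10).

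Cdh11 stood at 835.7, 898 and 906.5 CPM in BGJ398 and at 875, 771.4 and 890.5 CPM in BGJ398+FGF2, with a log2 fold change of −0.06 (95% interval −0.19 to 0.08). Gja1 stood at 138.5, 139.2 and 143.9 CPM in BGJ398 and at 157.6, 133.7 and 153.3 CPM in BGJ398+FGF2, with a log2 fold change of 0.08 (95% interval −0.07 to 0.22). Without BGJ398+FGF2 replicate 2 that value for Gja1 was 0.14, without BGJ398+FGF2 replicate 1 it was 0.03, and without the 3 libraries that stood apart it was 0.13, none of them called. For Gja1, replicates 1 and 3 of BGJ398+FGF2 lay above all BGJ398 libraries and replicate 2 lay below them. The interval of Gja1 reached a rise of 1.17-fold. The other 4 tested members had log2 fold changes of −0.06 to 0.03.

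The difference between the FGF2 changes under BGJ398 and in DMSO was tested as an interaction. It was called for 2 of the 7 members, Cdh2 and Cdh11, both positive, against 4.24% of all tested genes and 1.99% positive. For Cdh2 it was 0.44 ± 0.09 on the log2 scale (SE, edgeR adjusted p = 0.0124) and for Cdh11 0.41 ± 0.09 (SE, edgeR adjusted p = 0.0164). Both cadherins therefore responded less to FGF2 with the inhibitor than without it. For Gja1 the difference was −0.18 ± 0.10 (SE, edgeR adjusted p = 0.373), and −0.07 without the 3 libraries that stood apart, so a smaller response of Gja1 under BGJ398 was not shown.

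**Figure D2:**
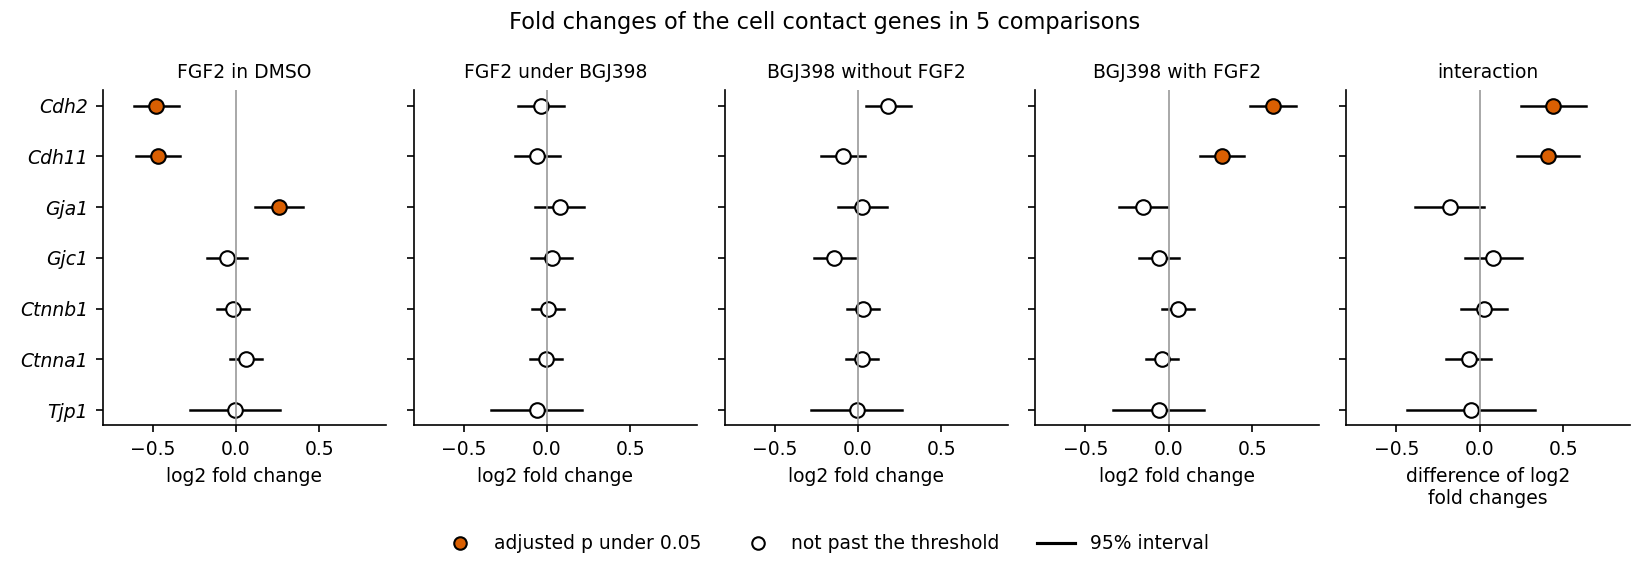
The log2 fold change (x axis) of the 7 tested genes (rows) in the 5 comparisons, with 95% intervals as lines and filled points where the adjusted p was under 0.05. The filled points are Cdh2, Cdh11 and Gja1 for FGF2 in DMSO, and Cdh2 and Cdh11 for BGJ398 with FGF2 and the interaction.

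BGJ398 was compared with DMSO in the absence of added FGF2, which asks whether the receptors act on these genes without the added ligand. No member was called, and 0.327% of all tested genes were. The comparison shares its DMSO libraries with the first. Cdh2 averaged 161.8 ± 6.10 CPM in BGJ398 against 142.5 ± 5.64 CPM in DMSO, with all 3 BGJ398 libraries above all DMSO libraries. Its log2 fold change of 0.18 ± 0.06 (SE) had an edgeR adjusted p of 0.383. Without the 3 libraries that stood apart it was 0.21, with an edgeR adjusted p of 0.00645. That fit called 730 of all genes against 41 with every library, and no other alternative called Cdh2 here. Cdh11, at 880 ± 38.7 CPM against 937.5 ± 6.68 CPM, had a log2 fold change of −0.09 (95% interval −0.22 to 0.04). Gjc1 stood at 44.3, 44.8 and 41.5 CPM in BGJ398 against 47.5, 48.8 and 47.6 CPM in DMSO, without overlap, and its log2 fold change of −0.14 ± 0.06 (SE) had an edgeR adjusted p of 0.507. The share of all tested genes without overlap was taken only for FGF2 in DMSO. Non-overlap between other groups is therefore a description and is not evidence of a change.

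In the presence of FGF2, BGJ398 raised both cadherins. Of the 7 members, 2 were called, both higher, against 22.2% of all tested genes and 10.8% higher. The comparison shares its DMSO+FGF2 libraries with the first, so its values are another view of the same low group. Cdh2 was 54.3% higher in BGJ398+FGF2 than in DMSO+FGF2, with a log2 fold change of 0.63 ± 0.06 (SE, edgeR adjusted p = 1.92e-05). Cdh11 was 24.7% higher, with 0.32 ± 0.06 (SE, edgeR adjusted p = 0.00255). Gja1 had a log2 fold change of −0.15 (95% interval −0.30 to −0.01, edgeR adjusted p = 0.124), which was −0.09 without BGJ398+FGF2 replicate 2, −0.10 without DMSO+FGF2 replicate 2 and −0.03 without the 3 libraries that stood apart. Ctnnb1 had a log2 fold change of 0.05 (edgeR adjusted p = 0.424), and 0.21 (edgeR adjusted p = 0.02) on length-scaled counts.

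The order of the 4 groups differed between the cadherins. Cdh2 was highest in BGJ398, followed by BGJ398+FGF2, DMSO and DMSO+FGF2, and of these neighbours only DMSO and DMSO+FGF2 did not overlap. Cdh11 was highest in DMSO, followed by BGJ398, BGJ398+FGF2 and DMSO+FGF2, and only its BGJ398 and BGJ398+FGF2 libraries overlapped. Gja1 was highest in DMSO+FGF2, followed by BGJ398+FGF2, BGJ398 and DMSO, and only its DMSO+FGF2 libraries lay apart from the next group. For Gjc1, Ctnnb1, Ctnna1 and Tjp1 all neighbouring groups in the order overlapped.

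Cdh11 and Cdh2 held most of the summed level of the Cdh genes, a sum that leaves out protocadherins and atypical cadherins. The 23 Cdh genes, of which 21 had reads, summed to 440.8 ± 9.80 TPM (SD, n = 3) in DMSO, 333.4 ± 30.2 in DMSO+FGF2, 435.0 ± 21.6 in BGJ398 and 424.5 ± 41.3 in BGJ398+FGF2. Cdh11 held 78.6% ± 0.29 of the sum in DMSO, 76.5% ± 0.9 in DMSO+FGF2, 75.7% ± 0.14 in BGJ398 and 75.9% ± 0.59 in BGJ398+FGF2 (SD, n = 3 each). In the same order Cdh2 held 14% ± 0.49, 12.7% ± 0.34, 16% ± 0.11 and 15.5% ± 0.57. Cdh24, a less studied cadherin, held 5.06% ± 0.25, 7.56% ± 0.46, 5.56% ± 0.18 and 5.73% ± 0.2.

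The ratio of Cdh2 to Cdh11 in TPM was 0.179 ± 0.0069 in DMSO and 0.165 ± 0.0064 in DMSO+FGF2 (exact permutation test, 2-sided p = 0.1, the smallest that 3 against 3 libraries can give). In CPM the ratio was 0.152 ± 0.0067 and 0.151 ± 0.0036 (exact 2-sided p = 0.9). The shift in TPM was thus not seen in reads scaled by library size.

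The 18 connexin genes, of which 13 had reads, summed to 145.2 ± 7.08 TPM in DMSO and 150.1 ± 0.584 TPM in DMSO+FGF2. Gja1 held 62.6% ± 1.9 of this in DMSO and 69.0% ± 2.5 in DMSO+FGF2, and Gjc1 held 35.4% ± 2.1 and 28.9% ± 2.3 (SD, n = 3 each). The ratio of Gja1 to Gjc1 in TPM was 1.77 ± 0.15 in DMSO and 2.40 ± 0.29 in DMSO+FGF2, without overlap (exact 2-sided p = 0.1, the smallest possible). In CPM the ratio was 2.88 ± 0.10 in DMSO and 3.57 ± 0.30 in DMSO+FGF2 (exact 2-sided p = 0.1), a log2 difference of 0.31 against 0.43 in TPM. Gjc1 itself was at 51.5 and 43.4 TPM but at 48 and 46.3 CPM, and its 247-base fragment Gjc1-204 held 11.2% of its TPM in DMSO and 4.01% in DMSO+FGF2. Under BGJ398 the TPM ratio of Gja1 to Gjc1 was 2.15 ± 0.20 without FGF2 and 1.97 ± 0.17 with FGF2 (exact permutation test, 2-sided p = 0.3).

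**Figure D3:**
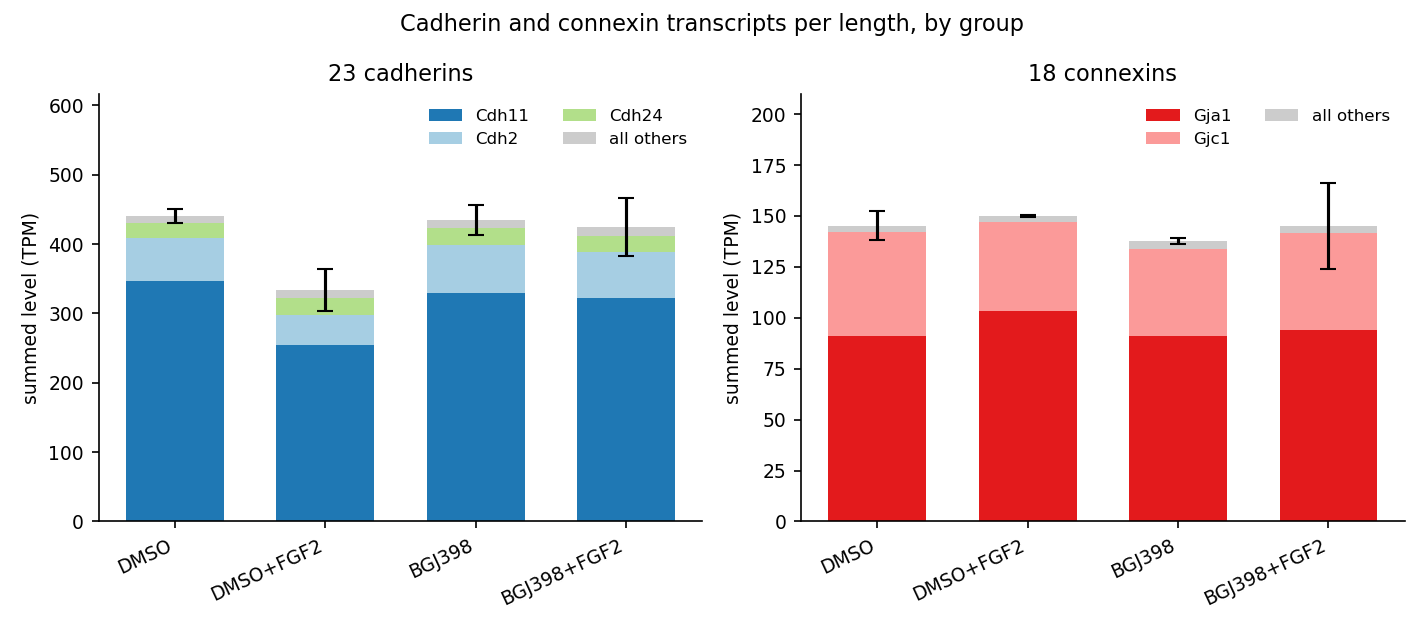
Summed levels in TPM (y axis from 0) of 23 cadherin and 18 connexin genes in the 4 groups, stacked by gene, with the SD of the sum over 3 libraries as bars. The cadherin sum is 333.4 TPM in DMSO+FGF2 and 424.5 to 440.8 TPM in the other groups, while the connexin sums lie between 137.8 and 150.1 TPM.

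Within the genes, reads were estimated per transcript, and the shares in TPM show which forms carried the levels. Cdh2 was carried by 2 coding transcripts, Cdh2-202 with 53.9% to 66.0% and Cdh2-201 with 34.0% to 46.1% over the 12 libraries. Gja1 was almost entirely Gja1-201, with at least 97.7%, and Ctnna1 was Ctnna1-201 with at least 94.2%. Gjc1 was led by the coding Gjc1-201, with 47.4% to 79.8%, beside the coding Gjc1-202 and Gjc1-203, with 7.12% to 25.2% and 4.22% to 13.8%. Its noncoding Gjc1-204, a fragment of 247 bases with 24 reads in all, held 0% to 19.6%, and the retained intron Gjc1-205 held 1.77% to 4.92%.

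Cdh11 was mostly the coding Cdh11-201, with 81.8% to 96.8%. Cdh11-203, a retained intron of 599 bases with 1354 reads in all, held 3.10%, 5.06% and 6.06% in DMSO and 15.3%, 7.82% and 11.3% in DMSO+FGF2. The groups did not overlap, but in BGJ398+FGF2 replicate 2, which stood apart, the share was 18.2%. TPM give a short transcript more weight per read, and the FGF2 change of Cdh11 was −0.47 on the log2 scale from summed counts and −0.37 from length-scaled counts.

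Ctnnb1 had 15 annotated transcripts, and the coding Ctnnb1-201 held 58.0% to 74.6%. The retained introns Ctnnb1-215 and Ctnnb1-210 held 16.9% to 30.1% and 1.23% to 12.1%. In BGJ398+FGF2 Ctnnb1-201 held 60.1% ± 2.0 (SD, n = 3), against 68.8% ± 3.5 in DMSO+FGF2. Of the 31-base words in Ctnnb1 transcripts, 13.2% also occur in Ulk4, which overlaps it on the opposite strand. Whether the quantification used strand is not given here, so the values of Ctnnb1 are uncertain to that extent. The shared portion was 4.78% for Cdh11, 2.44% for Ctnna1, 1.36% for Gja1 and under 1% for the other 4 members.

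Tjp1 was split between Tjp1-202, with 39.5% to 51.0%, and Tjp1-201, with 17.4% to 45.8%. Tjp1-203, a noncoding fragment of 699 bases, held 33.7% in BGJ398+FGF2 replicate 2 and 0% to 15.1% in the other libraries. That library also had the lowest share of Tjp1-201 and the lowest CPM of Tjp1.

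**Figure D4:**
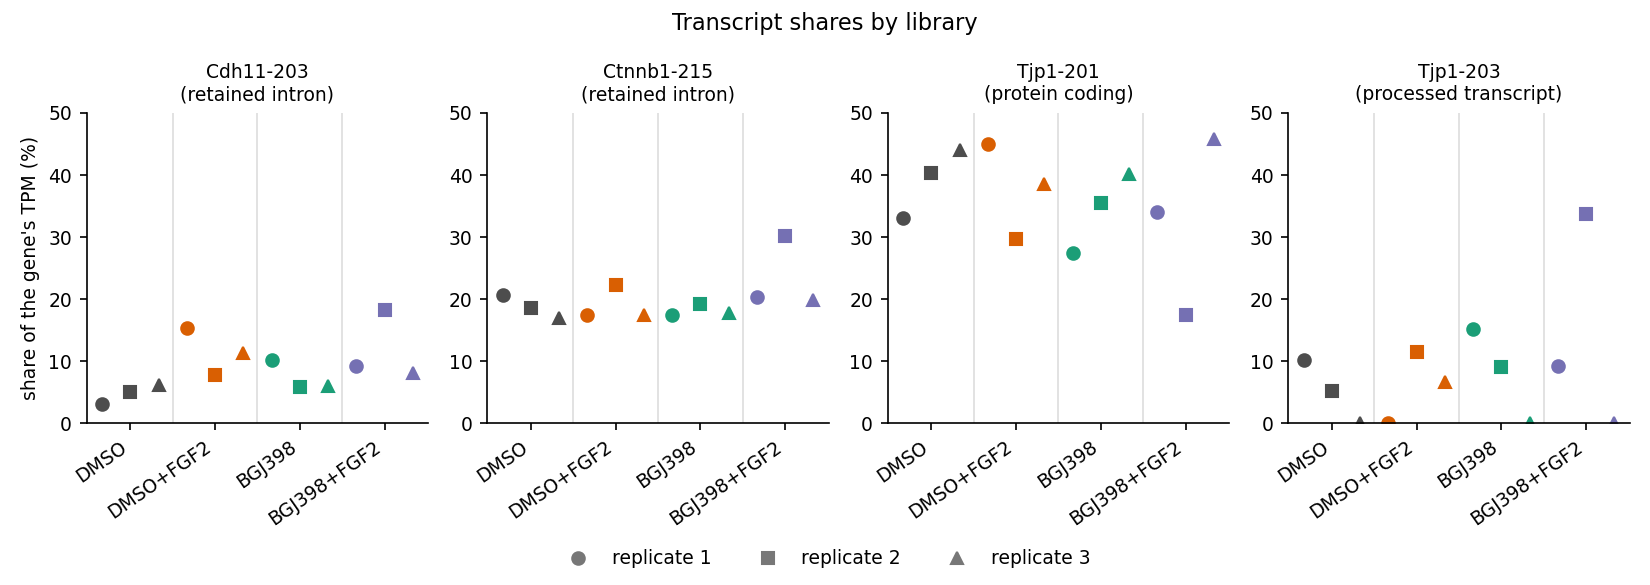
Share of a gene's TPM (%, y axis) for 4 transcripts in each library, with groups in panels from left to right and replicates by symbol. BGJ398+FGF2 replicate 2 is highest for Cdh11-203, Ctnnb1-215 and Tjp1-203, at 18.2%, 30.1% and 33.7%, and lowest for Tjp1-201, at 17.4%.

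The genes whose levels most resembled each called member over the 12 libraries were sought among 10355 protein-coding genes, as Pearson correlations of log2 CPM. The libraries share 4 groups, so these values describe patterns across groups. For Cdh2 they were Ndnf at 0.991, Grb10 at 0.990 and Pxdn at 0.988. For Cdh11 they were Ankrd29 at 0.984, Adamtsl3 at 0.978 and Gid4 at 0.975, and for Gja1 Nus1 at 0.939, Pi4k2b at 0.938 and Spsb1 at 0.898. Between the members, the correlation was highest for Cdh2 with Cdh11, at 0.851, followed by Cdh2 with Ctnnb1 at 0.731. It was lowest for Cdh11 with Gja1, at −0.70, followed by Cdh2 with Gja1 at −0.61.

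Genes of 9 further contact lists were read against the same background for FGF2 in DMSO, 13.4% of all tested genes called, 7.57% higher and 5.82% lower. No list's count was tested against it, and with 2 to 18 tested genes a list each count is a description. Levels in these lists are in TPM, while log2 fold changes come from the edgeR fit of counts. The change in TPM can therefore be smaller or larger than the log2 fold change beside it. Among the other cadherins, of 20 genes 13 had too few reads to test, and 4 of the 7 tested were called for FGF2 in DMSO, 2 higher and 2 lower, with a median log2 fold change of 0.03. Cdh3, P-cadherin, fell from 4.35 to 2.85 TPM, with a log2 fold change of −0.53 ± 0.10 (SE, edgeR adjusted p = 0.00248). Cdh1, E-cadherin of epithelia, had only 161 reads over the 12 libraries. It fell from 0.259 to 0.105 TPM with a log2 fold change of −1.34 ± 0.41 (SE, edgeR adjusted p = 0.0482), close to the threshold. Cdh17 rose from 4.15 to 6.02 TPM with a log2 fold change of 0.60 ± 0.09 (SE, edgeR adjusted p = 0.000581). Cdh24 rose from 22.3 to 25.1 TPM, and from 50.1 to 59.2 CPM, with 0.24 ± 0.07 (SE, edgeR adjusted p = 0.0419).

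Of 24 protocadherins and atypical cadherins, 15 were tested and 3 fell (20% called, against 13.4% of all genes), with none higher and a median of −0.24. Pcdh18, a protocadherin, fell from 41.2 to 27.9 TPM with a log2 fold change of −0.51 ± 0.06 (SE, edgeR adjusted p = 0.000103). Fat4, a giant cadherin of planar polarity that binds Dachsous, fell from 10.5 to 4.33 TPM with −1.21 ± 0.20 (SE, edgeR adjusted p = 0.000947). Clstn1, a calsyntenin, fell from 145 to 118 TPM, with a log2 fold change of −0.21. Fat1 and Pcdh19, each at 23.5 TPM in DMSO, did not pass the test.

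Apart from Gja1 and Gjc1, 17 of 19 further connexins and pannexins had too few reads to test, and none was called. Of these 17, 5 had no reads in any library.

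Among 22 catenins and adherens junction partners, 18 were tested, 3 rose and 2 fell, with a median of 0.01. Jup, plakoglobin, which can replace beta-catenin on cadherin tails, rose from 36.1 to 38.9 TPM and from 60.8 to 72.2 CPM. Its log2 fold change, from counts, was 0.25 ± 0.06 (SE, edgeR adjusted p = 0.0194). Nectin2, an immunoglobulin-type adhesion molecule, rose from 25.2 to 35 TPM with 0.57 ± 0.10 (SE, edgeR adjusted p = 0.00221). Plekha7, a partner of p120-catenin, rose from 1.14 to 2.14 TPM with 0.92 ± 0.25, and Pkp4, a relative of p120-catenin, fell from 28.6 to 22.4 TPM with −0.24 ± 0.06. The fifth called gene was the polarity scaffold Pard3, at 53.1 and 44.3 TPM. Ctnnd1, p120-catenin itself, was at 84.4 TPM in DMSO and 75.8 TPM in DMSO+FGF2, with an edgeR adjusted p of 0.198. Vcl, Lima1, Afdn, Abi1, Ajuba, Ctnnbip1, Nectin3 and Ctnnbl1, at 23.9 to 147 TPM in DMSO, did not pass the test.

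Of 28 tight junction genes, 15 were tested, 2 rose and 1 fell (20% called, against 13.4% of all genes), with a median of −0.00. Cgn, cingulin, had a log2 fold change of 0.63 ± 0.11 (SE, edgeR adjusted p = 0.00197) and F11r, the junctional adhesion molecule A, 0.41 ± 0.07 (SE, edgeR adjusted p = 0.00188). Jam3 fell with −0.34 ± 0.09 (SE, edgeR adjusted p = 0.0272). Marveld1, Mpdz, Cgnl1, Cldn12 and Magi3, at 22.0 to 73.5 TPM in DMSO, did not pass the test. Of 12 desmosomal genes, only 3 were tested, and 2 rose. These were the plakophilins Pkp1, with 0.42 ± 0.10 from 6.86 to 8.89 TPM, and Pkp3, with 1.39 ± 0.34 from 1.24 to 2.76 TPM.

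All 14 cadherin repressors and sheddases were tested, and 3 rose and 3 fell, with a median of 0.01. Snai2, a zinc-finger repressor of E-cadherin, fell from 94.4 to 57.1 TPM with a log2 fold change of −0.65 ± 0.06 (SE, edgeR adjusted p = 1.65e-05). Its relative Snai1 rose from 26.4 to 32.9 TPM with 0.40 ± 0.11 (SE, edgeR adjusted p = 0.0218). Adam12, a metalloprotease, fell from 3.30 to 1.39 TPM with −1.16 ± 0.12 (SE, edgeR adjusted p = 3.43e-05), and Adam15 rose from 132 to 157 TPM with 0.28 ± 0.06. Twist2 rose and Zeb2 fell, as the remaining calls. Adam10, which cleaves N-cadherin, was at 95.1 and 86.6 TPM with an edgeR adjusted p of 0.723. Ncstn, Adam9, Twist1, Adam17 and Zeb1, at 34.2 to 109 TPM in DMSO, did not pass the test either.

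Beta-catenin turnover genes, which encode its destruction complex and ubiquitin ligases, were all 9 tested and none was called for FGF2 in DMSO, with a median of −0.10. Those at 20 TPM or more in DMSO were Csnk1a1, Gsk3a, Axin1, Gsk3b, Siah1a, Btrc, Apc and Siah1b, at 20.9 to 174 TPM. Of 14 target genes of beta-catenin and TCF, 11 were tested and 3 fell, with none higher and a median of −0.03. Tnfrsf19 fell from 3.31 to 1.4 TPM with a log2 fold change of −1.09 ± 0.14 (SE, edgeR adjusted p = 0.000171), and the Wnt feedback inhibitors Nkd1 and Nkd2 fell with −1.99 ± 0.51 and −1.94 ± 0.35 from levels under 1 TPM. Axin2 and Lef1, widely used readouts of this pathway, had log2 fold changes of 0.04 and −0.03, and Tcf7, at 62.0 TPM in DMSO, had 0.14 (edgeR adjusted p = 0.0604).

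Under BGJ398 none of the tested genes in these 9 lists was called for FGF2. BGJ398 with FGF2 called 3 of 7 other cadherins, 3 of 15 protocadherins and atypical cadherins, 0 of 2 connexins and pannexins, 5 of 18 adherens junction partners and 7 of 15 tight junction genes. It also called 2 of 3 desmosomal genes, 6 of 14 repressors and sheddases, 1 of 9 turnover genes and 5 of 11 target genes, against the 22.2% given above. This comparison again shares the DMSO+FGF2 libraries. Of the same lists, BGJ398 without FGF2 called no gene.

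**Figure D5:**
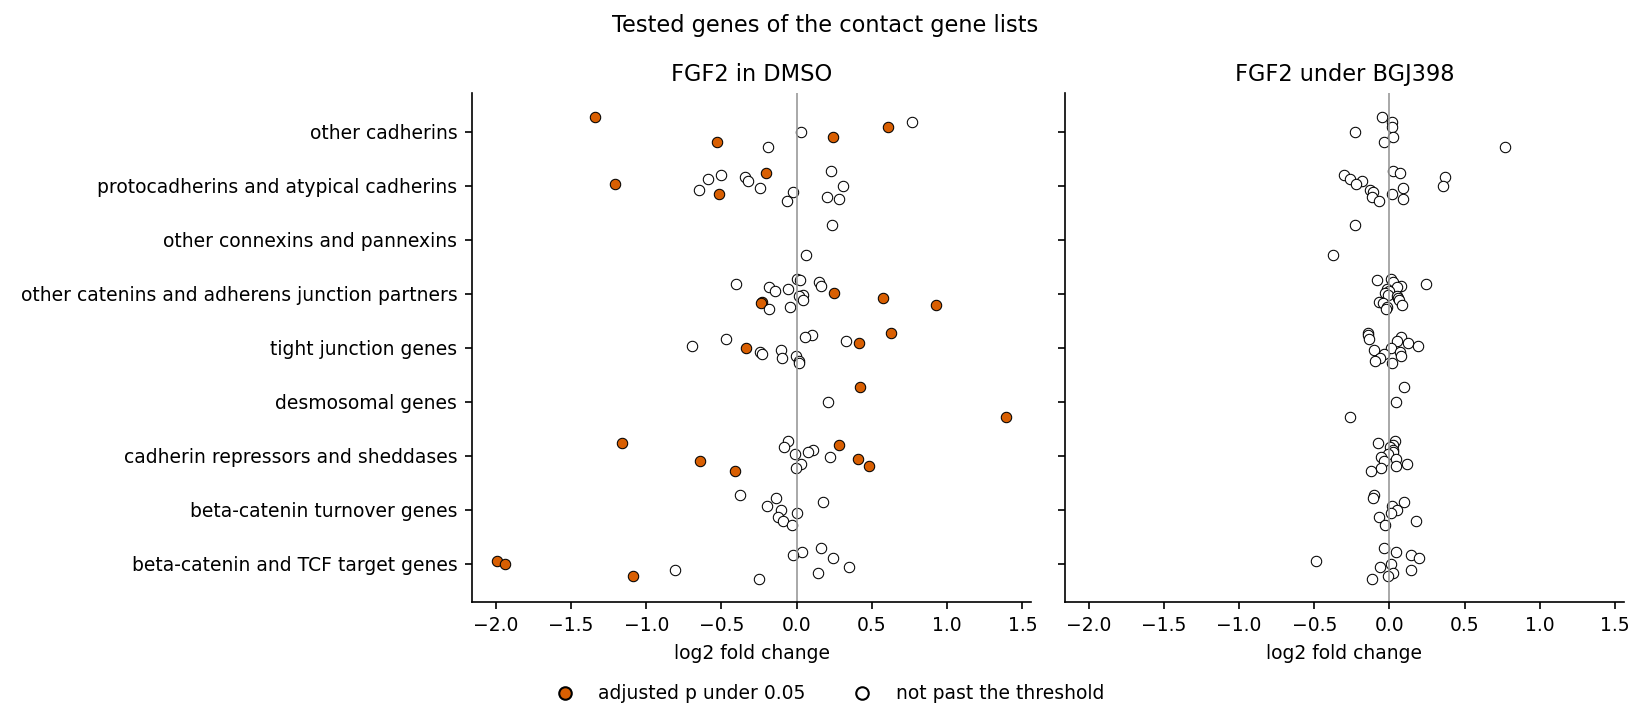
The log2 fold change (x axis) of each tested gene in 9 further contact gene lists (rows), for FGF2 in DMSO on the left and FGF2 under BGJ398 on the right, filled where the adjusted p was under 0.05. Filled points lie on both sides of 0 on the left, and there is none on the right.

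Other features of the cells moved with the cadherins. The summed level of the 15 osteoblast and osteocyte markers was 8080 to 8300 TPM in DMSO, 5890 to 6360 in DMSO+FGF2, 8680 to 9010 in BGJ398 and 8370 to 9290 in BGJ398+FGF2. Col1a1, Col1a2 and Sparc carry most of that sum. Of the 11 tested markers, 8 fell and 2 rose for FGF2 in DMSO. Among those that fell, Alpl went from 8.24 to 0.852 TPM with a log2 fold change of −3.17 ± 0.13 (SE, edgeR adjusted p = 8.69e-09). Sp7 fell with −1.24 ± 0.10 (SE, edgeR adjusted p = 4.06e-06). Sparc, Col1a1, Col1a2 and Runx2 fell with log2 fold changes of −0.70, −0.68, −0.55 and −0.30. Those that rose were Spp1, from 591 to 1420 TPM with a log2 fold change of 1.34 ± 0.08 (SE, edgeR adjusted p = 3.49e-07), and Pdpn, from 31.4 to 43.6 TPM with 0.52 ± 0.08 (SE, edgeR adjusted p = 0.000581). The 7 macrophage markers summed to 13.5 to 15 TPM in DMSO+FGF2 and 6.66 to 10.1 TPM in the other groups, with the defining marker Adgre1 at 0 and Ptprc and Itgam near 0. Of the 4 tested, Cd68, a lysosomal protein, rose from 2.92 to 10.3 TPM (edgeR adjusted p = 6.59e-05), while Lyz2 was at 1.52 and 0.632 TPM and Csf1r at 0.208 and 0.115 TPM, neither past the test. Their part in the results was not tested, and in bulk RNA fewer cells of a type and less RNA per cell cannot be told apart.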

How the data were processed

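Polyadenylated RNA of 12 Ocy454 cultures was sequenced, with groups and replicate numbers taken from the titles. The labels say only that conditions were run in triplicate, so the p-values reflect library-to-library spread only, which may be technical. Within groups, pairs of libraries differed by 3.26 to 25.5 times counting noise, and none was treated as a duplicate.

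Salmon was used with genome build GRCm39, per the submitters' processing notes. Its version and options, strand included, are not given here. Each deposited table holds, per the file headers, expected counts (estimated reads per transcript, not scaled), TPM (length-corrected and scaled to a fixed total) and effective lengths in bases. Expected counts were summed per gene by transcript identifier with GENCODE M21, used for names, transcript types and chromosomes, and rounded. Of 116178 transcripts, 1522 were not matched, and their reads, 0.499% to 0.641% of a library, were left out.

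Tests used edgeR 4.0.16 in R 4.3.3 (filterByExpr, TMM, quasi-likelihood test, 1 model of 4 group means, 8 residual degrees of freedom), 2-sided, with Benjamini-Hochberg adjustment over 12542 genes and a threshold of 0.05. Called means past that threshold. Intervals are 95% intervals from the same fit. CPM use TMM-scaled library sizes. The test was also run on simulated counts. These were drawn independently for each library, with no axis shared by libraries, so they cannot show how the axis found here affects the test. Alternatives were DESeq2 1.42.0, limma-voom (limma 3.58.1), other scaling, no filter, length-scaled TPM counts, a replicate block, only the groups compared, and leaving out libraries. Leaving out the 3 libraries that stood apart, and the paired fit of only the 2 groups compared, were chosen after seeing the data.

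Between DMSO+FGF2 and BGJ398+FGF2, same-numbered deviations from the group means correlated at 0.431 to 0.72, over the tested genes with the highest mean level. Replicate 2 stood apart in both groups, which by itself can give such values, because deviations within a group are tied through its mean. The labels do not say that a number marks a shared batch, so pairing by number was not shown. In the other 5 pairs of groups not all 3 correlations exceeded 0.1 (range −0.661 to 0.387). The members and lists were chosen with earlier results of these data known. Named were all 8 members and, from each other list, up to 4 called genes with the smallest p for FGF2 in DMSO and every gene of at least 20 TPM in DMSO. The 3 genes most correlated with each called member were also named, among those with a mean of at least 5 CPM. Twist2, Axin2 and Lef1 fall outside that rule and were named after their values were seen. Some list genes are not reported here by name. Arvcf, 1 of the listed genes, had no row in the gene table used.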

Additional observations from a re-analysis of the deposited data

Results flagged for a closer look

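The FGF2 change differed between the cultures with and without BGJ398, by the edgeR interaction test with adjusted p under 0.05, for the 2 cadherins described above and for 7 of the 94 tested genes of the other contact lists, or 7.45%, against 4.24% of all tested genes. The interaction was 0.44 on the log2 scale for Cdh2 and 0.41 for Cdh11. Among genes that fell with FGF2 in DMSO, it was 0.53 ± 0.09 (SE, adjusted p = 0.00363) for Pcdh18, 0.61 ± 0.09 (SE, adjusted p = 0.00144) for Snai2, 1.09 ± 0.17 (SE, adjusted p = 0.00224) for Adam12, 1.08 ± 0.19 (SE, adjusted p = 0.00475) for Tnfrsf19 and 1.95 ± 0.47 (SE, adjusted p = 0.0323) for Nkd2. Among genes that rose, it was −0.59 ± 0.13 (SE, adjusted p = 0.0207) for Cdh17 and −0.77 ± 0.16 (SE, adjusted p = 0.0153) for Cgn.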

How the results depend on the processing

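Cdh2 and Cdh11 stayed called, in the same direction, in all 21 alternatives for FGF2 in DMSO, all 22 for BGJ398 with FGF2 and all 20 for the interaction. The log2 fold change for FGF2 in DMSO ranged from −0.51 to −0.44 for Cdh2 and from −0.50 to −0.37 for Cdh11. Gja1 for FGF2 in DMSO ranged from 0.20 to 0.30 and lost its call in 4 of 21 alternatives, given above, and the cause was not tested. The number of members called changed in the leave-one-out fits (2 to 3) and on length-scaled counts (2) for FGF2 in DMSO, on length-scaled counts for BGJ398 with FGF2 (3, with Ctnnb1) and, without the 3 libraries that stood apart, for BGJ398 without FGF2 (1, Cdh2). The number of all genes called moved more. For FGF2 in DMSO it was 1018 to 2256 when 1 library was left out, with the lowest counts of 1018, 1052 and 1086 without DMSO replicate 3, DMSO replicate 2 and DMSO+FGF2 replicate 2, and 2611 without the 3 libraries. For FGF2 under BGJ398 it was 0 to 1 when 1 library was left out, 5 by DESeq2, 6 without the filter, 1 from only the 2 groups and 4 without the 3 libraries. For BGJ398 without FGF2 it was 9 to 104 when 1 library was left out, 150 by DESeq2, 12 on length-scaled counts, 83 without the filter, 64 from only the 2 groups, 21 with the replicate block and 730 without the 3 libraries. For BGJ398 with FGF2 it was 1948 to 3345 when 1 library was left out, 1816 on length-scaled counts and 1794 from only the 2 groups. For the interaction it was 328 to 956 when 1 library was left out, 349 on length-scaled counts and 1038 without the 3 libraries. The replicate block changed no call of a member: with it the edgeR adjusted p for FGF2 in DMSO was 0.000544 for Cdh2, 0.000366 for Cdh11 and 0.042 for Gja1, and pairing DMSO+FGF2 with BGJ398+FGF2 alone gave 0.62 for Cdh2, 0.32 for Cdh11 and 3430 genes called. Under BGJ398 the log2 differences of the ratios were −0.04 in TPM and 0.02 in CPM for Cdh2 to Cdh11, and −0.12 and 0.05 for Gja1 to Gjc1. Cdh13 could not be tested at this depth.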
